A study of Mus musculus with 8 samples.

Results

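The mitochondrial carriers are the SLC25 family of transport proteins, and the uncoupling proteins Ucp1, Ucp2 and Ucp3 belong to the same family by descent. Members were taken by symbol from the gene tables of 8 islet RNA libraries: every symbol that starts with Slc25a, and the 3 uncoupling proteins. This gave 49 genes among the 17401 genes with a value, and 1 more, Slc25a54, was listed without a value in any library. The 8 libraries came from pancreatic islets of 12-week-old C57BL/6 mice, 4 from ob/ob mice and 4 from ob/+ mice. The ob allele is a loss-of-function mutation of Lep, the gene of the fat cell hormone leptin. Mice with both copies mutant, ob/ob, become obese and insulin resistant, while ob/+ mice carry a single mutant copy and are the controls here, so that both groups hold the ob allele. Islets were freed with collagenase, purified on a density gradient and picked by hand, per the labels' protocols. Whether a library stands for 1 mouse or for pooled mice is not in the labels. The p-values therefore rest on the spread among the 8 libraries, part of which may be technical.

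Carriers of this family sit mostly in the inner mitochondrial membrane and move metabolites, nucleotides, phosphate and cofactors between the cytosol and the matrix. In beta cells, the insulin-secreting cells that make up most of a mouse islet, ATP made in the matrix leaves through the adenine nucleotide carriers, and citrate, malate, aspartate and glutamate leave or enter through carriers that link glucose breakdown to the cytosol. Uncoupling proteins are named after Ucp1, which lets protons leak back into the matrix of brown fat and so makes heat. Ucp2 is the family member known from beta cells, where it has been studied in mice as a brake on insulin secretion.

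The promoters of 3 genes are shown because they frame the results below: Ucp2 and Slc25a33 are the members that passed the test between genotypes, and Ucp3 is the near neighbour of Ucp2 that islets hardly express. Ucp3 ends 6905 bases upstream of Ucp2 on the plus strand of chromosome 7. Each sequence runs 5′ to 3′ on the gene's own strand, from 250 bases before to 50 bases after the start in RefSeq (GRCm38.p6). They lie at chr7:100493108-100493407 (Ucp2, plus strand), chr7:100472741-100473040 (Ucp3, plus strand) and chr4:149774218-149774517 (Slc25a33, minus strand). Capitals mark CACGTG, the core letters of the E-box that helix-loop-helix factors bind.
Ucp2: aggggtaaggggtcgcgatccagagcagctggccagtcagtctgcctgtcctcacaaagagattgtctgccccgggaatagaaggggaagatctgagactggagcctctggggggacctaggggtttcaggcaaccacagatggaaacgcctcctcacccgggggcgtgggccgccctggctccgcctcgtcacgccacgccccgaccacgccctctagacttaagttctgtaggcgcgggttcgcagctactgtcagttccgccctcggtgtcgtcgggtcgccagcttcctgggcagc
Ucp3: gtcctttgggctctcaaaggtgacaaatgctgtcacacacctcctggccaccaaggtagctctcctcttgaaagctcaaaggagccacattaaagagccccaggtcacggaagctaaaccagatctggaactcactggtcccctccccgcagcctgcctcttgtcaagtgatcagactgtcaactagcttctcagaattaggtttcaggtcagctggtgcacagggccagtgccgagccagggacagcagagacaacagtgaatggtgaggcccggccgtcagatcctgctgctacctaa
Slc25a33: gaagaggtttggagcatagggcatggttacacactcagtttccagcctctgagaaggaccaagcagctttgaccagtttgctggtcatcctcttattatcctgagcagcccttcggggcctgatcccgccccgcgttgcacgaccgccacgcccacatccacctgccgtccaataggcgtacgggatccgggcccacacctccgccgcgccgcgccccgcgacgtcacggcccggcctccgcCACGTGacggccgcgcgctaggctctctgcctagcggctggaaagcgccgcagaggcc
The Ucp2 window held 21 CpG dinucleotides at 64.3% GC, the Slc25a33 window 30 at 66% GC, and the Ucp3 window 5 at 55% GC. Promoter windows were given for 38 of the 49 members, and the first window listed was used where a gene had several. Over the 28 of these that were expressed well enough to be tested, the median was 22.5 CpG, and over the 10 that were not it was 7, against 21 for all 9100 tested genes with a window and 7 for all 27025 genes of the table. The E-box letters stood in 5 of the 28 tested members (17.9%), against 10.4% of tested genes and 7.24% of all genes. The nuclear respiratory factor 1 motif, searched on both strands as were the others, stood in 1 of the 28, Slc25a3 (3.57%), against 11.01% of tested genes and 4.78% of all genes. The cyclic AMP element letters TGACGTCA stood in 1 of the 28, Slc25a36 (3.57%), against 3.45% of tested and 1.88% of all genes, and TCAAGGTCA, the letters of the estrogen-related receptors, in 0 of the 28, against 0.286% and 0.407%.

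Values were taken as FPKM, a level per kilobase of transcript and scaled by the library's fragments. The unit was inferred from the values, and setting levels side by side between genes rests on that inference. Summed FPKM ran from 920734 to 1004230 in ob/ob and from 820968 to 880570 in ob/+. Relative depth, roughly estimated from the smallest values, ran from 0.971 to 1.03. The insulin genes took 57.1% to 65.6% of summed FPKM in ob/ob and 41.98% to 54.3% in ob/+. Of the 10 beta cell markers tested, 2 rose (Ins2 and Iapp) and 4 fell: the transcription factor Mafa (-1.15), the glucose transporter Slc2a2 (-1.29), Ucn3 (-0.60) and the zinc transporter Slc30a8 (-0.59 on the log2 scale). Markers of acinar cells, which make digestive enzymes and border on islets, took 3.12% to 10.9% in ob/ob and 7.20% to 24.4% in ob/+, where the highest value was that of ob/+ 4. That library was the lowest of the 4 ob/+ libraries for 32 of 37 tested carriers (86.5%) and for 79.6% of all tested genes, so fold changes of carriers are also given without it where that moves a call. Of the alpha cell markers 5 of 6 tested fell in ob/ob and 1 rose, and of the delta and PP cell markers 5 of 5 tested fell. In RNA of whole islets, fewer cells of a type and less RNA per cell cannot be told apart.

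Islets expressed most of the family. Of the 49 members, 37 reached 1 FPKM in at least 4 libraries and were tested. The 5 most abundant were Ucp2, the phosphate carrier Slc25a3, the adenine nucleotide carriers Slc25a4 (ANT1) and Slc25a5 (ANT2), and the glutathione carrier Slc25a39, and Ucp2 and Slc25a3 held ranks 1 and 2 in both genotypes. Ucp2 ranked 176 among all 17401 genes by mean level. In ob/ob the order ran Ucp2 239 ± 32.7, Slc25a3 157 ± 6.43, Slc25a4 91.3 ± 6.73, Slc25a39 76.8 ± 7.69 and Slc25a5 72.5 ± 6.33 FPKM, and in ob/+ it ran Ucp2 177 ± 17.03, Slc25a3 137 ± 10.02, Slc25a4 96.2 ± 9.34, Slc25a39 86.3 ± 5.35 and Slc25a5 84.2 ± 4.40 FPKM (SD, n = 4 each). Slc25a39 and Slc25a5 were within an SD of each other in both genotypes. All members together summed to 900 to 1029 FPKM in ob/ob and 844 to 1007 FPKM in ob/+, which was 0.0909% to 0.112% and 0.0958% to 0.118% of the library. Ucp2 took 21.2% to 26.3% of that sum in ob/ob and 17.5% to 20.1% in ob/+, so that the groups did not overlap in a share that does not depend on how libraries are scaled. Without Ucp2 the sums overlapped, at 709 to 775 FPKM in ob/ob and 678 to 805 FPKM in ob/+.

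**Figure D1:**
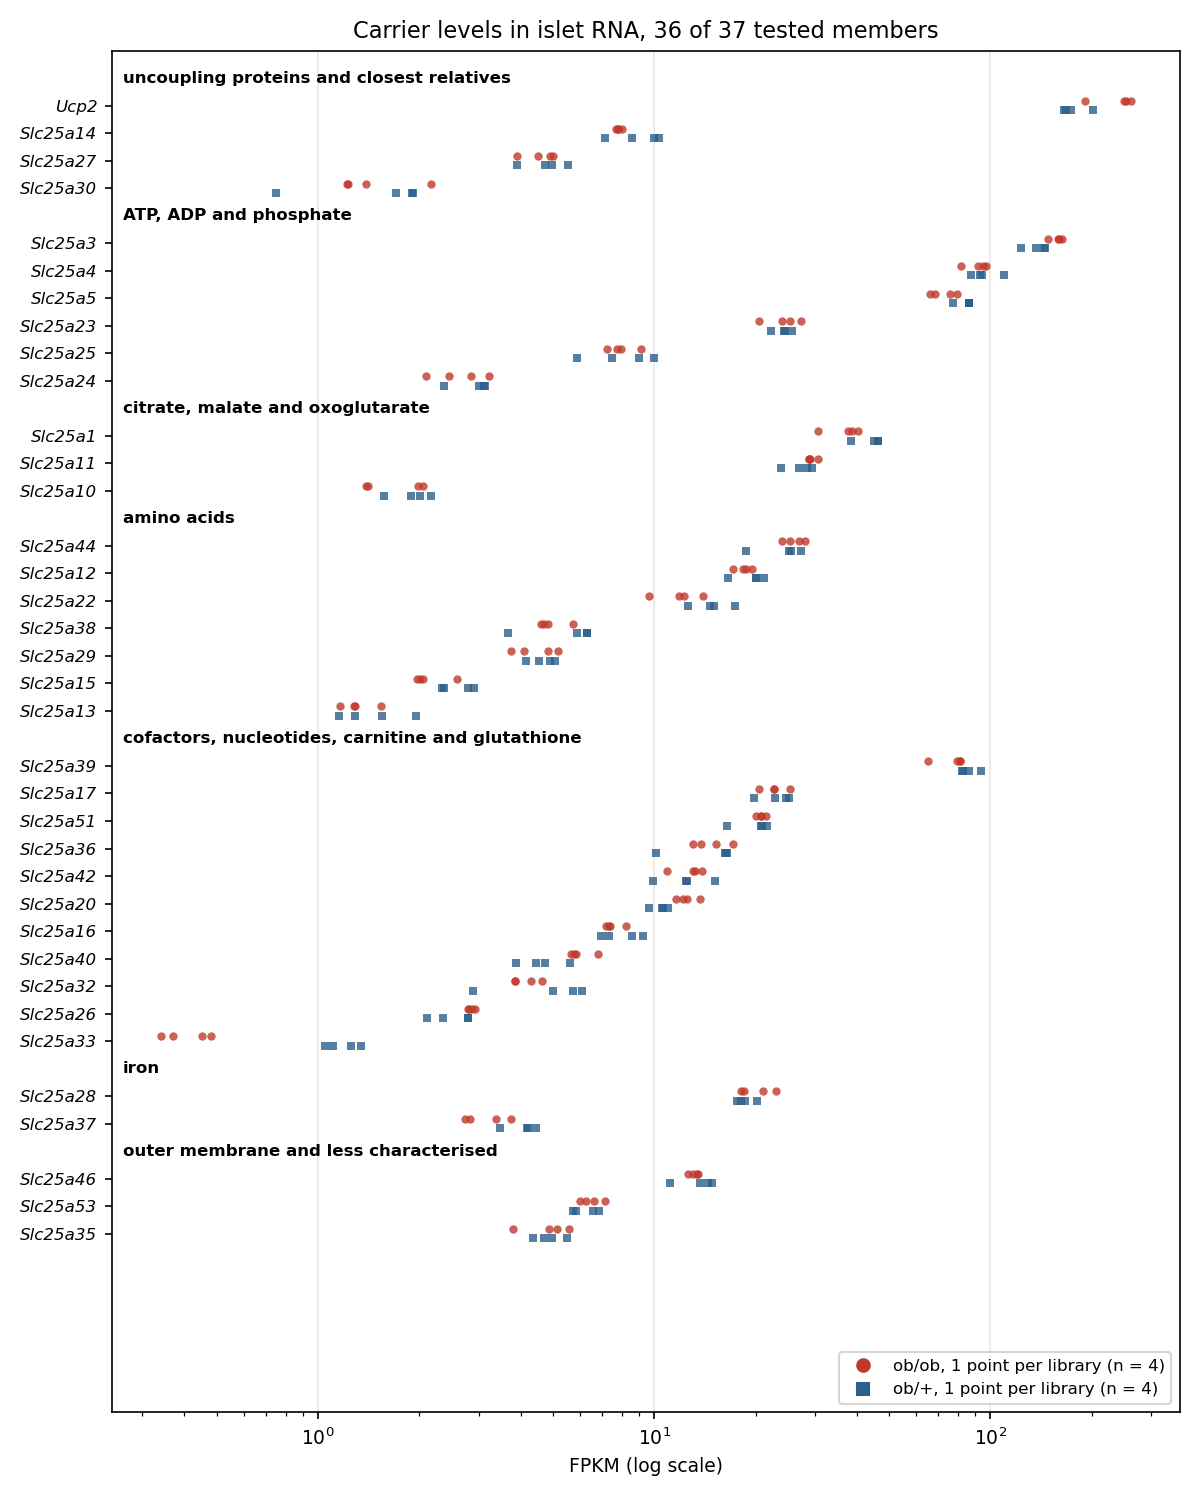
Level of 36 of the 37 tested carriers in FPKM on a log axis, grouped by what they carry, with 1 point per library (ob/ob circles above ob/+ squares, n = 4 each). Ucp2, at 191 to 262 FPKM in ob/ob and 166 to 202 FPKM in ob/+, is the highest member, and Slc25a33 is the member whose ob/ob points, 0.34 to 0.48 FPKM, stand well apart from ob/+, 1.05 to 1.34 FPKM.

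The study sets islets of ob/ob mice against those of ob/+ mice. Of the 37 tested carriers 1 rose in ob/ob, Ucp2, and 1 fell, Slc25a33, in limma's test on log2(FPKM + 1) with Benjamini-Hochberg adjustment over all 11747 tested genes and a threshold of 0.05. Over all tested genes the same rule called 18.8% (8.21% higher and 10.6% lower in ob/ob), and over the carriers 5.41%. Slc25a33 is in that count only because its ob/+ libraries reached 1 FPKM. A filter on a mean of 1 FPKM removed it and left 0 carriers called lower. An unadjusted p under 0.05 was reached by 9 of the 37 (24.3%), against 31.2% of all tested genes. The log2 fold changes of the carriers ran from -0.63 to 0.42 with a median of -0.04, and the median of all tested genes was -0.07. For 32 of the 35 carriers that did not pass, the 95% interval of the log2 fold change lay inside -0.5 to 0.5. These intervals hold for log2(FPKM + 1), which understates changes at low levels, and for the deposited scaling. When scaled without the acinar genes, 22 of the 37 carriers were called lower, and so were 6928 of all 11747 tested genes. Groups did not overlap for 5 of the 37 (13.5%), against 20.5% of all tested genes: all ob/ob libraries lay above all ob/+ libraries for Slc25a3, Slc25a20 and Slc25a40 (9.75% of all tested genes), and below them for Slc25a33 and Slc25a39 (10.7% of all tested genes).

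**Figure D2:**
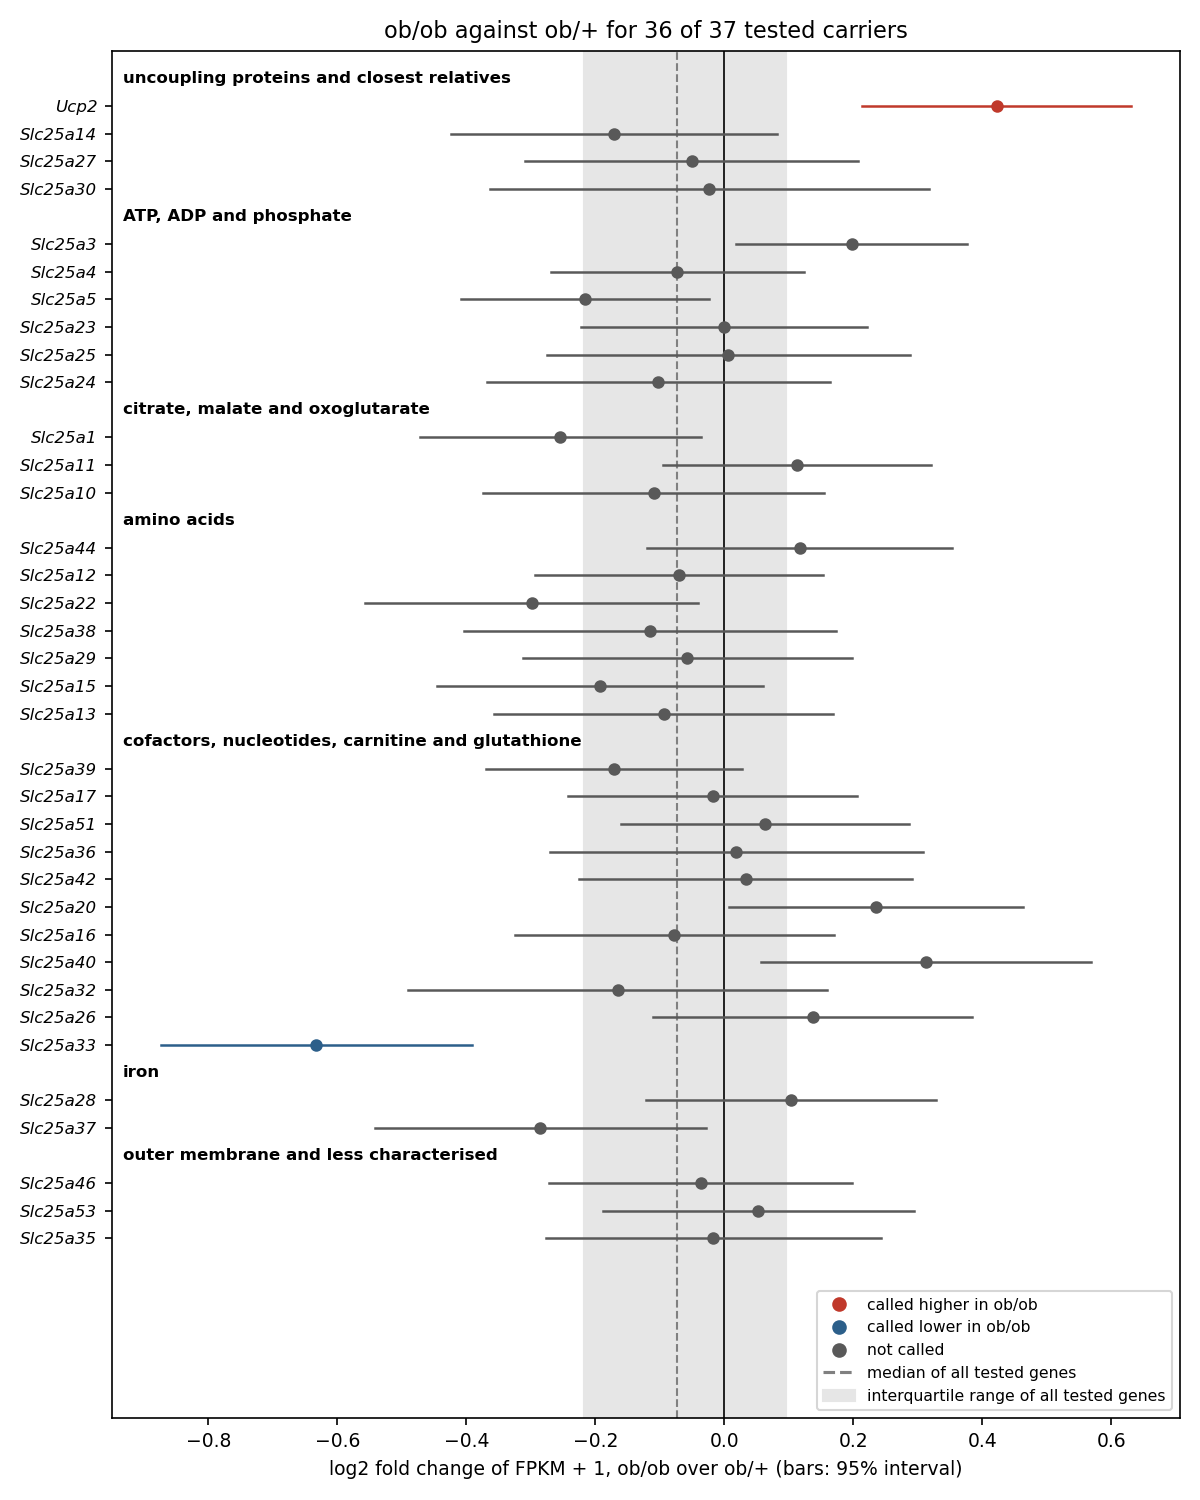
Log2 fold change of FPKM + 1, ob/ob over ob/+, for 36 of the 37 tested carriers with 95% intervals, grouped by what they carry, with the median (dashed) and interquartile range (shaded) of all tested genes behind them. Ucp2 at 0.42 and Slc25a33 at -0.63 are the coloured points that passed the test, and most other points lie near the median of all genes at -0.07.

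Among the uncoupling proteins, Ucp2 was the one that islets expressed, and it rose in ob/ob. Ucp2 (ENSMUSG00000033685, GRCm38 chromosome 7, 100493337 to 100502020, plus strand) was at 262, 249, 254 and 191 FPKM in ob/ob libraries 1 to 4, against 202, 167, 174 and 166 FPKM in ob/+ libraries 1 to 4. In 3 ob/ob libraries the level lay above that of every ob/+ library, and ob/ob 4 lay below ob/+ 1, so the groups overlapped by that pair. The mean was 1.35-fold higher in ob/ob (log2 fold change 0.42 ± 0.10 SE, limma adjusted p = 0.00387). Leaving out each library in turn gave 0.37 to 0.53, with the highest value without ob/ob 4, and adjusted p between 0.000264 and 0.0209. Without both ob/+ 4 and ob/ob 1, which had the highest acinar share of their genotypes, it was 0.34 (adjusted p = 0.0285). The call ended when acinar genes were left out of the scaling, at 0.13 (adjusted p = 0.336), where the median of all tested genes also moved to -0.32. Ucp2 then stood 0.45 above that median, and 0.50 above it with the deposited scaling. With acinar genes left out, the insulin genes made up a larger part of the sum used for scaling. They took 57.1% to 65.6% of the full sum in ob/ob and 41.98% to 54.3% in ob/+. The part of insulin in the lost call was not tested. Macrophages are also known to express Ucp2, and the summed level of 10 macrophage markers was 68.5 to 112 FPKM in ob/ob and 71.2 to 102 FPKM in ob/+, with 0 of the 8 tested markers called. The part of macrophages and of beta, alpha and delta cell numbers in the Ucp2 level was not tested. Dnajb13 is annotated across Ucp2 on the opposite strand and was at 0.34 to 0.55 FPKM in ob/ob and 0.05 to 0.24 FPKM in ob/+, and whether the counting used strand is not given in the sources used here.

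Ucp1 and Ucp3 were at the edge of detection. Ucp1, the brown fat protein, was listed at 0.03, 0.03, 0 and 0.04 FPKM in ob/ob libraries 1 to 4 and at 0, 0, 0 and 0.03 FPKM in ob/+. A single fragment is worth an estimated 0.0355 FPKM for a transcript of its length, so these values are about a single fragment. Ucp3, which is known from skeletal muscle, was listed at 0, 0.02, 0.07 and 0.02 FPKM in ob/ob and at 0 in each ob/+ library, where a single fragment is worth an estimated 0.0237 FPKM. Neither was tested, and no difference could be detected at this depth. Of the adipocyte markers, Adipoq, Plin1, Cidec and Retn were at 0.1 FPKM or less in every library, and the summed level of the 7 adipocyte markers, which came mainly from Fabp4, was 16.8 to 28.5 FPKM in ob/ob and 12.5 to 20.3 FPKM in ob/+. The 5 skeletal muscle markers summed to 2.22 to 2.98 FPKM in ob/ob and 1.36 to 2.96 FPKM in ob/+.

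The closest relatives of the uncoupling proteins, which are known mainly from brain and kidney, were expressed at lower levels and did not pass the test. Slc25a14 was at 7.80, 8.03, 7.78 and 7.68 FPKM in ob/ob, against 10.3, 9.98, 8.60 and 7.15 FPKM in ob/+, so that ob/+ 4 lay below every ob/ob library (log2 fold change -0.17, limma adjusted p = 0.357), and without ob/+ 4 it passed as lower, at -0.27 (adjusted p = 0.0196). Slc25a27 was at 4.58 ± 0.488 in ob/ob and 4.79 ± 0.679 FPKM in ob/+. Slc25a30 was at 1.502 ± 0.452 in ob/ob and 1.57 ± 0.554 FPKM in ob/+, with the widest interval of the tested carriers, -0.36 to 0.32 on the log2 scale.

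The carriers of ATP, ADP and phosphate, which supply the ATP synthase and export its product, showed no call among 6 tested members, and their summed level was 344 to 376 FPKM in ob/ob and 328 to 378 FPKM in ob/+. Slc25a3, the phosphate carrier, was at 159, 159, 163 and 148 FPKM in ob/ob libraries 1 to 4, against 145, 144, 137 and 123 FPKM in ob/+. Every ob/ob library was above every ob/+ library, but the difference was small, at a log2 fold change of 0.20 ± 0.09 SE (limma adjusted p = 0.117). Slc25a3 passed the test as higher with median centring, with upper-quartile scaling and when scaled without the 10 most abundant genes, 3 of 19 alternatives, and its sign turned, to -0.10, when scaled without acinar genes. Slc25a4, the adenine nucleotide carrier of heart and muscle, was at 81.8, 94.8, 97.0 and 91.6 FPKM in ob/ob and 110, 93.4, 94.2 and 87.8 FPKM in ob/+. Slc25a5, the form of dividing and many other cells, was at 68.3, 66.2, 75.7 and 79.7 FPKM in ob/ob, against 86.3, 86.4, 77.6 and 86.5 FPKM in ob/+. The Slc25a5 groups overlapped through ob/ob 4 and ob/+ 3 (log2 fold change -0.22 ± 0.09 SE, limma adjusted p = 0.113). Islets held both nucleotide carriers, while Slc25a31, the testis form, stayed at 0 to 0.25 FPKM in ob/ob and 0 to 0.16 FPKM in ob/+.

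The calcium-regulated carriers that exchange ATP-magnesium for phosphate spanned a range of levels, and none of the 3 tested was called. Slc25a23 was at 24.3 ± 2.85 in ob/ob and 24.2 ± 1.40 FPKM in ob/+, a log2 fold change of 0.00 with a 95% interval of -0.22 to 0.22. Slc25a25 was at 8.02 ± 0.790 in ob/ob and 8.09 ± 1.80 FPKM in ob/+, and Slc25a24 at 2.65 ± 0.484 in ob/ob and 2.91 ± 0.362 FPKM in ob/+. Slc25a41, a member that lacks the calcium-binding part, was listed at 0.1 FPKM or less in every library.

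Carriers of citrate, malate and oxoglutarate had no call among 3 tested members. Slc25a1, which exports citrate for fatty acid synthesis and for the pyruvate-citrate cycle, was at 37.7, 40.2, 38.6 and 30.6 FPKM in ob/ob, against 46.2, 46.2, 45.1 and 38.4 FPKM in ob/+. Within the ob/+ group, library 4 stood below the others and inside the ob/ob range (log2 fold change -0.25 ± 0.11 SE, limma adjusted p = 0.0981). Without ob/+ 4 Slc25a1 passed as lower, at -0.32 (adjusted p = 0.00917), and it also passed without both ob/+ 4 and ob/ob 1. It passed as well with log2 of the summed acinar FPKM as a covariate and with acinar genes left out of the scaling. Slc25a11, the oxoglutarate-malate carrier of the malate-aspartate shuttle, was at 29.4 ± 0.843 in ob/ob and 27.2 ± 2.46 FPKM in ob/+. Slc25a10, the dicarboxylate carrier, was at 1.71 ± 0.356 in ob/ob and 1.91 ± 0.254 FPKM in ob/+, and Slc25a21, the oxodicarboxylate carrier, was listed at 0.02 FPKM in ob/ob 1 and at 0 in the other 7 libraries.

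Amino acid carriers had no call among 7 tested members, and their median log2 fold change was -0.09. Of the aspartate-glutamate carriers, Slc25a12 (aralar), which the malate-aspartate shuttle uses, was at 18.4 ± 0.982 in ob/ob and 19.4 ± 2.0 FPKM in ob/+, and Slc25a13 (citrin), the form of liver, was at 1.32 ± 0.160 in ob/ob and 1.49 ± 0.356 FPKM in ob/+. Slc25a22, a glutamate carrier, was at 12.3, 14.0, 11.9 and 9.66 FPKM in ob/ob, against 15.0, 17.4, 14.7 and 12.6 FPKM in ob/+. Its groups overlapped through ob/ob 2 and ob/+ 4 (log2 fold change -0.30 ± 0.12 SE, limma adjusted p = 0.1003), and without ob/+ 4 it passed as lower, at -0.37 (adjusted p = 0.0102). Its paralog Slc25a18 was at 0.13 to 0.26 FPKM in ob/ob and 0.04 to 0.21 FPKM in ob/+, and lies across Atp6v1e1 on the opposite strand, a gene at 76.3 and 104 FPKM on average in ob/ob and ob/+. Slc25a44, a carrier of branched-chain amino acids known from brown fat, was at 26.1 ± 1.78 in ob/ob and 24.2 ± 3.71 FPKM in ob/+. The carrier of basic amino acids Slc25a29 and the ornithine carrier Slc25a15 were at 4.46 ± 0.645 and 2.15 ± 0.287 FPKM in ob/ob, and at 4.67 ± 0.407 and 2.60 ± 0.287 FPKM in ob/+. The glycine carrier Slc25a38 was at 4.83, 4.69, 5.72 and 4.61 FPKM in ob/ob, against 5.89, 6.32, 6.30 and 3.68 FPKM in ob/+. Its lowest library was ob/+ 4, and without it Slc25a38 passed as lower, at -0.27 (limma adjusted p = 0.0276). Slc25a2, the second ornithine carrier, stayed at 0.13 FPKM or less.

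Among carriers of nucleotides, cofactors, carnitine and glutathione, 1 of 12 tested members fell and none rose. Slc25a33 (ENSMUSG00000028982, GRCm38 chromosome 4, 149744036 to 149774277, minus strand), a pyrimidine nucleotide carrier whose gene is known to respond to insulin-like growth factor signalling in cultured cells, was at 0.45, 0.48, 0.37 and 0.34 FPKM in ob/ob libraries 1 to 4, against 1.11, 1.34, 1.05 and 1.25 FPKM in ob/+. The highest ob/ob library lay below the lowest ob/+ library, and the ratio of means was 0.345. The log2 fold change was -0.63 ± 0.12 SE (limma adjusted p = 0.000299), and it was -1.34 with a pseudocount of 0.1, which shows how far the added 1 shrinks a gene this low. The call held under each of the 18 alternatives in which the gene was tested, with adjusted p of 2.67e-05 to 0.00400, and a filter on a mean of 1 FPKM removed the gene. Slc25a33 passed the expression filter only through its ob/+ libraries. A single fragment is worth an estimated 0.0308 FPKM for it, so the ob/ob values rest on few fragments per library. Slc25a36, the other pyrimidine carrier, was the more abundant, at 14.8 ± 1.82 in ob/ob and 14.8 ± 3.10 FPKM in ob/+, with a 95% interval of -0.27 to 0.31 on the log2 scale.

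**Figure D3:**
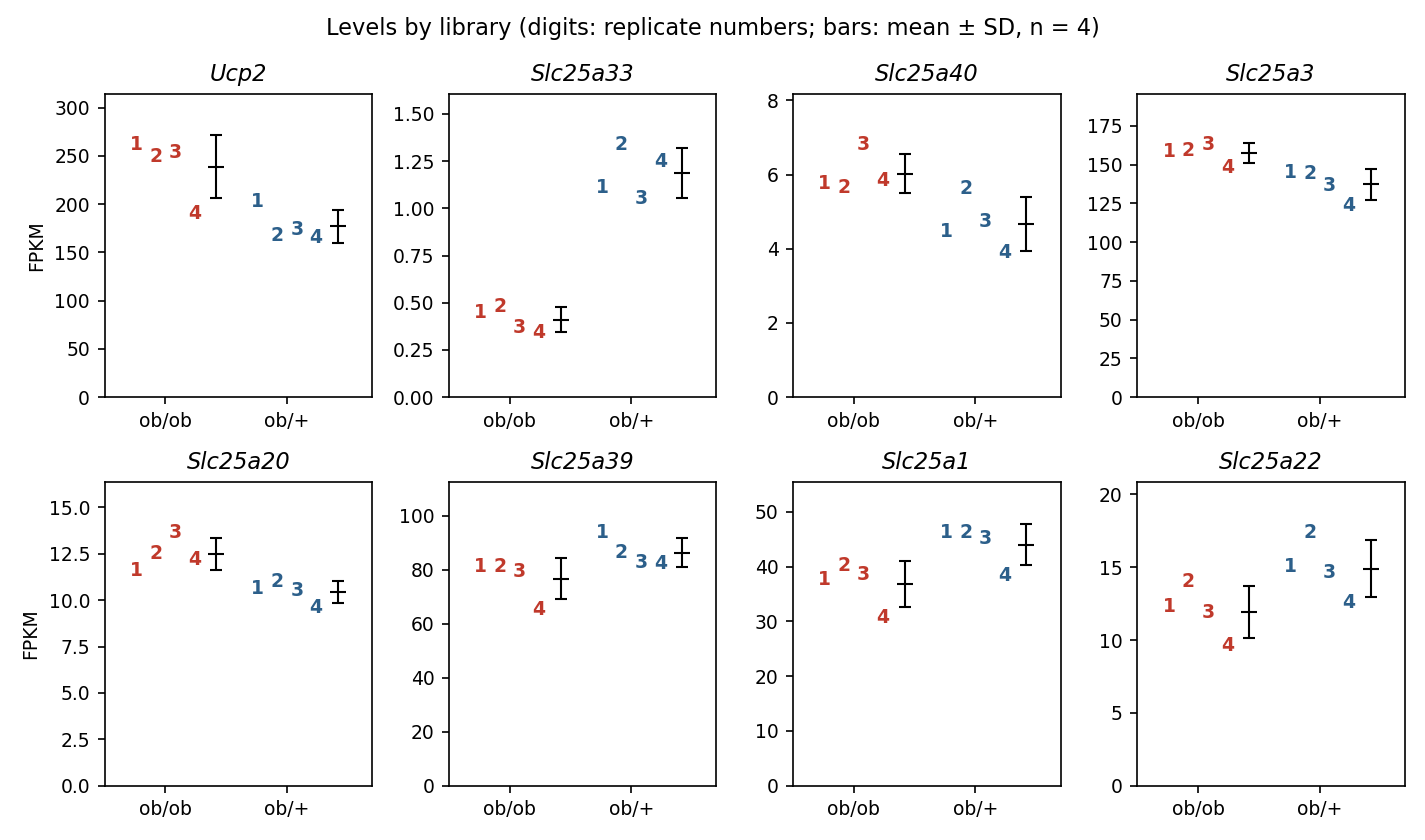
FPKM of 8 carriers by library, with replicate numbers as symbols and the mean ± SD (n = 4) beside them, ob/ob left of ob/+. In Ucp2 the ob/ob library 4 lies among the ob/+ values, in Slc25a33 the groups are far apart at 0.41 and 1.19 FPKM on average, and in Slc25a1 and Slc25a22 the ob/+ library 4 lies among the ob/ob values.

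The glutathione carriers had fold changes of opposite sign, and neither passed the test. Slc25a39, the abundant form, was at 81.2, 81.1, 79.5 and 65.3 FPKM in ob/ob, against 93.8, 86.6, 82.7 and 82.2 FPKM in ob/+ (log2 fold change -0.17 ± 0.10 SE, limma adjusted p = 0.232). Slc25a40 was at 5.77, 5.66, 6.82 and 5.85 FPKM in ob/ob, against 4.46, 5.63, 4.73 and 3.89 FPKM in ob/+ (0.31 ± 0.12 SE, adjusted p = 0.0804). In Slc25a40 the lowest ob/ob library, 2, exceeded the highest ob/+ library, also 2, by less than the spread within either group, and without ob/+ 2 the gene passed as higher at 0.39 (adjusted p = 0.0453). It also passed as higher with median centring, with upper-quartile scaling and when scaled without the 10 most abundant genes (adjusted p = 0.00227 to 0.0404). Slc25a20, the carnitine-acylcarnitine carrier that brings fatty acids into the matrix for oxidation, was at 11.6, 12.5, 13.6 and 12.2 FPKM in ob/ob, against 10.6, 11.01, 10.5 and 9.63 FPKM in ob/+ (0.24 ± 0.11 SE, limma adjusted p = 0.146), and it passed as higher with median centring and with upper-quartile scaling, while its sign turned, to -0.04, when scaled without acinar genes.

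The remaining cofactor carriers described here had log2 fold changes between -0.17 and 0.14. The peroxisomal carrier Slc25a17 was at 22.8 ± 1.95 in ob/ob and 23.1 ± 2.45 FPKM in ob/+, and the NAD carrier Slc25a51 at 20.8 ± 0.560 in ob/ob and 19.9 ± 2.34 FPKM in ob/+. The coenzyme A carriers Slc25a42 and Slc25a16 were at 12.7 ± 1.29 and 7.53 ± 0.479 FPKM in ob/ob, and at 12.5 ± 2.12 and 8.04 ± 1.08 FPKM in ob/+. Slc25a26, the carrier of S-adenosylmethionine, was at 2.85 ± 0.0529 in ob/ob and 2.51 ± 0.341 FPKM in ob/+. Slc25a32, which is tied to folate and flavin, was at 4.29, 3.86, 3.86 and 4.63 FPKM in ob/ob, against 4.99, 6.08, 5.74 and 2.89 FPKM in ob/+. Its lowest library was ob/+ 4, and without it Slc25a32 passed as lower, at -0.36 (limma adjusted p = 0.00787).

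Both mitoferrins, which bring iron into mitochondria for heme and iron-sulfur clusters, were expressed, and neither passed the test. Slc25a28 (mitoferrin-2), the form of most tissues, was at 20.2 ± 2.30 in ob/ob and 18.6 ± 1.10 FPKM in ob/+. Slc25a37 (mitoferrin-1), the form of red cell precursors, was at 2.73, 2.83, 3.75 and 3.37 FPKM in ob/ob, against 4.20, 4.44, 4.17 and 3.47 FPKM in ob/+ (log2 fold change -0.29 ± 0.12 SE, limma adjusted p = 0.116). Without ob/+ 4 it passed as lower, at -0.34 (adjusted p = 0.0141). Erythroid markers were higher in ob/ob: the 7 with a value summed to 319 to 1305 FPKM in ob/ob and 114 to 205 FPKM in ob/+, nearly all of it globin, and 3 of 4 tested ones rose. The ob/ob library with the highest Slc25a37, library 3, was also the one with the highest erythroid sum. In ob/+ it was the reverse: library 4 had the highest erythroid sum, 205 FPKM, and the lowest Slc25a37, 3.47 FPKM. The part of blood cells in the Slc25a37 level was not tested.

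Of the outer membrane and less characterised members, 3 of 8 were tested and none was called. Slc25a46, a protein of the outer membrane that acts in mitochondrial shape and lipid supply, was at 13.1 ± 0.403 in ob/ob and 13.6 ± 1.66 FPKM in ob/+. Slc25a53 was at 6.52 ± 0.494 in ob/ob and 6.25 ± 0.551 FPKM in ob/+, and Slc25a35 at 4.84 ± 0.758 in ob/ob and 4.88 ± 0.474 FPKM in ob/+. Slc25a45 lay just under the filter, at 0.63 to 1.14 FPKM in ob/ob and 0.48 to 1.15 FPKM in ob/+, and Slc25a47, a carrier known from liver, was at 0.43 to 0.70 FPKM in ob/ob and 0.22 to 0.47 FPKM in ob/+. The other 10 of the 12 members under the filter, Ucp1 and Ucp3 among them, stayed below 0.3 FPKM in every library, including Slc25a34, Slc25a43 and Slc25a48.

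Several carriers share a substrate, and the ratio of such carriers within a library does not depend on how the library was scaled. The log2 ratio of FPKM is described for 7 pairs, with no test, since the pairs were chosen after the values were seen. Slc25a36 stood 36.3-fold above Slc25a33 in ob/ob and 12.3-fold above it in ob/+ (geometric means), with log2 ratios of 4.94, 4.77, 5.54 and 5.48 in ob/ob against 3.89, 3.599, 3.96 and 3.02 in ob/+. The groups did not overlap, with a difference of 1.56, and this restates the lower Slc25a33 of ob/ob, since the fold change of Slc25a36 itself was 0.02 on the log2 scale. The ratio of Slc25a40 to Slc25a39 was 0.0786 in ob/ob and 0.0538 in ob/+, a log2 difference of 0.55 with non-overlapping groups. That gap also restates its members, neither of which passed the test. All ob/ob libraries lay above ob/+ for Slc25a40 and below ob/+ for Slc25a39, so the ratio could not overlap. The mitoferrin ratio, Slc25a37 to Slc25a28, was 0.157 in ob/ob and 0.218 in ob/+ (log2 difference -0.48), and the groups overlapped. For the other 4 pairs the log2 difference lay between -0.15 and 0.01: Slc25a5 was at 0.793 of Slc25a4 in ob/ob and 0.877 of it in ob/+, and Slc25a13 at 0.0712 of Slc25a12 in ob/ob and 0.0753 of it in ob/+.

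**Figure D4:**
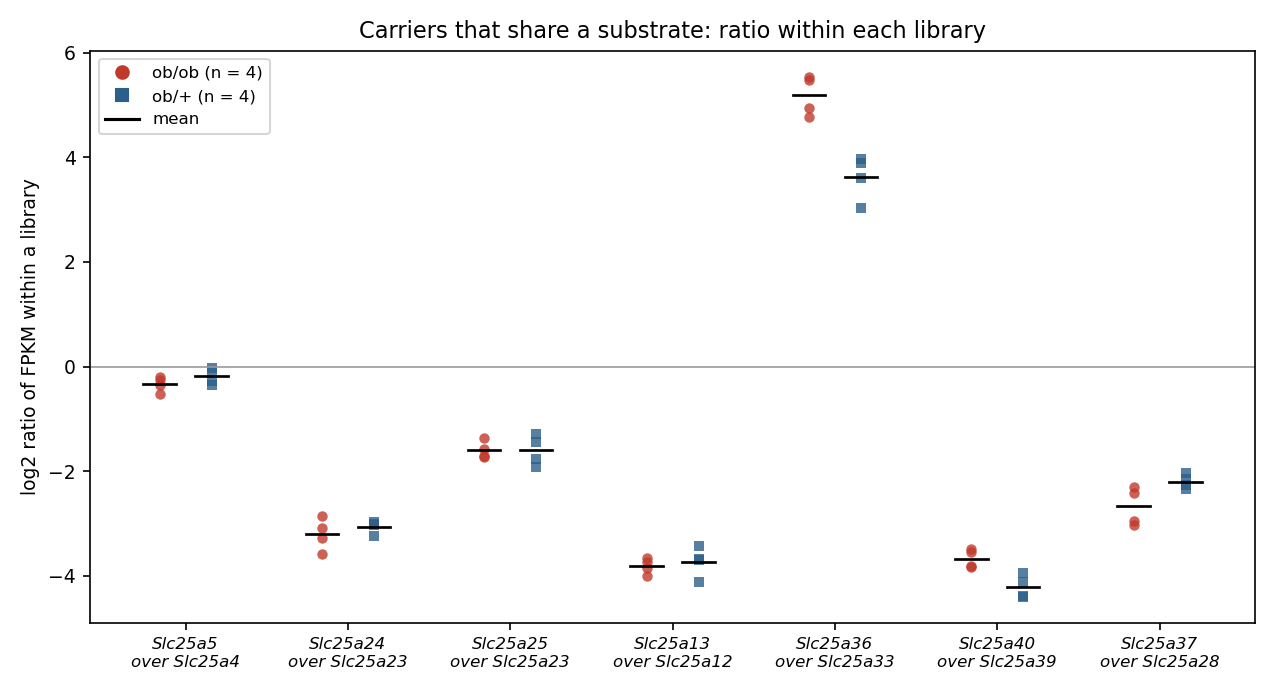
Log2 ratio of FPKM within each library for 7 pairs of carriers that share a substrate, ob/ob (circles, left) and ob/+ (squares, right), n = 4 each, with the mean as a line. The groups are apart for Slc25a36 over Slc25a33 (means 5.18 and 3.62) and Slc25a40 over Slc25a39 (-3.67 and -4.22), and they overlap for the other pairs.

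Genes that work beside the carriers held calls in both directions, and over 6 lists 14 of 80 tested were called (17.5%), near the 18.8% of all tested genes. Of 24 tested proteins of mitochondrial transport outside the family 1 rose and 2 fell. Mpc1, a subunit of the mitochondrial pyruvate carrier, was at 25.2 ± 2.58 in ob/ob and 37.1 ± 2.73 FPKM in ob/+ (log2 fold change -0.54 ± 0.10 SE, limma adjusted p = 0.000405). It fell, as did Mtch1, an outer membrane relative of the carriers whose symbol does not start with Slc25a, at 81.1 ± 5.30 in ob/ob and 112 ± 11.4 FPKM in ob/+ (-0.46 ± 0.09 SE, adjusted p = 0.00101), and the sideroflexin Sfxn2 rose (0.39 ± 0.11 SE, adjusted p = 0.0157). Of 15 tested genes of the machinery that imports carriers 1 fell, the outer membrane channel Tomm40 (-0.38 ± 0.12 SE, adjusted p = 0.0270). In the shuttles that pass reducing power from cytosol to mitochondria 1 of 8 rose and 1 fell: cytosolic Gpd1 was at 13.3 ± 1.78 in ob/ob and 9.49 ± 1.18 FPKM in ob/+, and mitochondrial Gpd2, which fell, at 8.61 ± 0.465 in ob/ob and 13.2 ± 1.51 FPKM in ob/+.

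Of 16 tested genes of pyruvate and citrate cycling 1 rose and 3 fell. Mitochondrial malic enzyme Me3 was at 2.91 ± 0.202 in ob/ob and 1.06 ± 0.249 FPKM in ob/+ (log2 fold change 0.93 ± 0.12 SE, limma adjusted p = 4.09e-06), and pyruvate carboxylase Pcx (-0.65 ± 0.11 SE) and the pyruvate dehydrogenase kinase Pdk4 (-1.64 ± 0.18 SE) fell. ATP citrate lyase Acly, the enzyme that uses exported citrate, also fell (-0.26 ± 0.09 SE, adjusted p = 0.0477). In the carnitine shuttle 1 of 5 tested genes fell, Cpt1c (-0.43 ± 0.12 SE), and the liver form Cpt1a was at 14.3 ± 1.40 in ob/ob and 17.2 ± 2.60 FPKM in ob/+ (adjusted p = 0.175). Without ob/+ 4 Cpt1a passed as lower, at -0.31 (adjusted p = 0.0182), and so did Cpt2 of the same list, at -0.24 (adjusted p = 0.02). Agk, Foxa2, Got2, Timm8a1, Timm9 and Vdac3 of the other lists also passed as lower without ob/+ 4, as did 3848 of all 11747 tested genes. Of 12 tested regulators of mitochondrial genes Esrrg rose (0.46 ± 0.13 SE, adjusted p = 0.0174), and Pparg (-0.45 ± 0.12 SE, adjusted p = 0.00935) and Pprc1 (-0.45 ± 0.14 SE, adjusted p = 0.0311) fell. The medians of the 6 lists ran from -0.22 to -0.04 beside -0.07 for all tested genes. Me3, Pdk4, Pcx, Mpc1, Mtch1 and Gpd2 kept their call under each of the 19 alternatives, and the other 8 genes called here lost it under 1 or more of them. Acly and Tomm40 lost the call when any 1 library other than ob/+ 4 was left out, 7 of 8 cases each (adjusted p = 0.0599 to 0.185 for Acly and 0.0523 to 0.127 for Tomm40). Pprc1 lost it in 5 cases, without ob/ob 1, ob/ob 4, ob/+ 1, ob/+ 2 or ob/+ 3 (adjusted p = 0.0662 to 0.123). Cpt1c lost it without ob/ob 4, ob/+ 1 or ob/+ 3 (adjusted p = 0.0559 to 0.112), Sfxn2 without ob/ob 1, ob/ob 3 or ob/+ 3 (0.0507 to 0.0688), and Gpd1 without ob/ob 1 (0.0738).

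**Figure D5:**
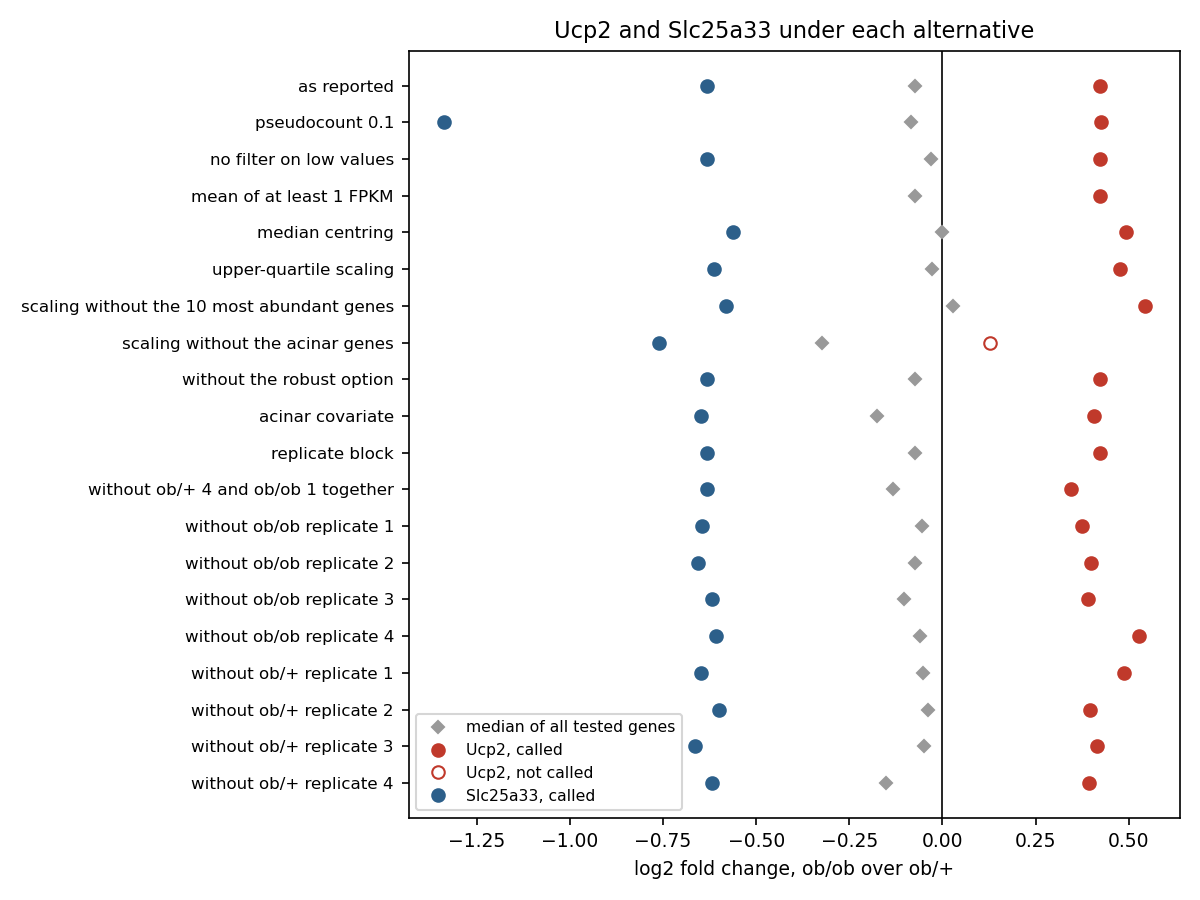
Log2 fold change, ob/ob over ob/+, of Ucp2 (red) and Slc25a33 (blue) under the reported setting and each alternative, with the median of all tested genes (grey). Filled points passed the test. Ucp2 ran from 0.13 to 0.54 and lost its call when scaled without acinar genes, where the median of all genes lay at -0.32, and Slc25a33 passed wherever it was tested.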

How the data were processed

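The authors deposited a table for each of the 8 libraries with a value per gene symbol, and 3314 of the 20715 symbols listed had no value. The deposited values were taken as FPKM: the files do not name the unit, and it was inferred from the values, which have 2 decimals, sum to different totals in each library and, at low levels, fall in steps that scale with transcript length. Absolute depth, aligner, quantifier and use of strand were not given in the sources used here. Per the submitters' processing notes, builds GRCm38 and mm10 and the tools DESeq2 1.20.0 and Trimmomatic 0.36 were used, with no role stated. Groups and replicate numbers came from the labels. Gene positions came from the GENCODE annotation of GRCm38, and promoter sequences from RefSeq.

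The filter kept genes that reached 1 FPKM in 4 or more libraries, and limma 3.58.1 (R 4.3.3) compared log2(FPKM + 1) between genotypes (moderated variances with trend and robust options, two-sided, Benjamini-Hochberg adjustment over all tested genes, threshold 0.05). Fold changes on this scale understate the change of genes at low levels. The script was tested on simulated data with known changes. Every member with a value is in the counts, and 1 tested member that was not called is not reported here by name. Full statistics are given for called members and the uncoupling proteins, and values in every library for these, for the 5 highest members and for members whose groups did not overlap or whose call moved with 1 library, the last 2 kinds being chosen after their values were seen. The members and lists were chosen with earlier results of these data known. Alternatives changed the pseudocount, the filter, the scaling, the robust option, an acinar covariate, a replicate block and the libraries included. The summed level of the members is described without the exact test first planned for it, and protein features were not analysed here.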

Additional observations from a re-analysis of the deposited data

Results flagged for a closer look

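In 10 of the 74 groups of 4 libraries, 2 for each of the 37 tested carriers, a single library stood apart from the other 3 by more than Dixon's limit. Chance flags about 1 in 20 independent groups. These groups share the same 8 libraries and are not independent, so no excess is read from the count. Of the 10 flags, 5 were the lowest value of ob/+ 4, the library with the highest acinar share. That library was the lowest of the ob/+ libraries for 79.6% of all tested genes. Slc25a1 was at 38.42 FPKM in ob/+ 4, with the other ob/+ libraries at 45.13 to 46.22. Slc25a24 was at 2.37 FPKM there, with the others at 3.01 to 3.13. Slc25a36 was at 10.15 FPKM in that library, with the others at 16.24 to 16.48. Slc25a38 was at 3.68 FPKM, with the others at 5.89 to 6.32, and Slc25a51 at 16.46 FPKM, with the others at 20.73 to 21.61. In ob/+ 3, Slc25a5 was low at 77.59 FPKM, with the others at 86.26 to 86.47.

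In the ob/ob group, Slc25a15 was high in library 1 at 2.58 FPKM, with the others at 1.97 to 2.05. Slc25a16 and Slc25a40 were high in ob/ob 3, at 8.24 FPKM with the others at 7.19 to 7.36, and at 6.82 FPKM with the others at 5.66 to 5.85. Slc25a39 was low in ob/ob 4 at 65.3 FPKM, with the others at 79.5 to 81.25.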

How the results depend on the processing

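Of the 37 tested carriers, Slc25a33 kept its call in each of the 18 alternatives that tested it and Ucp2 in 18 of 19, the exception being scaling without the acinar genes. The number of genes called, 2208 as reported, was 3429 with median centring, 3465 with upper-quartile scaling, 7420 with scaling without the acinar genes, and 4183 without ob/+ 4 and ob/ob 1 together. Leaving out each library in turn gave 1546 to 4955, the highest without ob/+ 4. Carriers called higher, 1 as reported, were 4 with median centring and with upper-quartile scaling, 3 without the 10 most abundant genes in the scaling, and 0 without the acinar genes, and 1 to 2 with each library left out, with Slc25a40 added without ob/+ 2. Carriers called lower, 1 as reported, were 0 with a filter on a mean of 1 FPKM, which removes Slc25a33, 22 with scaling without the acinar genes, 3 with the acinar covariate and 6 without ob/+ 4 and ob/ob 1 together. With each library left out they were 1 to 7, the highest without ob/+ 4. Over all 11747 tested genes, 1243 were called lower as reported and 6928 with scaling without the acinar genes. The all-gene count was 2564 with the acinar covariate, 3103 without ob/+ 4 and ob/ob 1 together and 3848 without ob/+ 4. Slc25a23 at -0.28 and Slc25a51 at -0.22 reversed and passed as lower with scaling without the acinar genes (limma adjusted p = 0.0259 and 0.0494). The share of calls that were higher in ob/ob was 43.7% as reported, 66.9% without the 10 most abundant genes, 6.63% without the acinar genes, 22.5% with the acinar covariate, 25.8% without both libraries and 22.3% without ob/+ 4. Causes of these shifts were not tested.

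With a replicate block, 3 carriers were called lower, Slc25a1, Slc25a22 and Slc25a33. The labels do not say what a shared number means. For that reason the libraries were not taken as paired in the reported setting. Deviations of same-numbered libraries correlated at -0.220, 0.212, 0.173 and 0.124 across genes for numbers 1 to 4. The ob/ob libraries 2, 3 and 4 correlated best with their own number and ob/ob 1 with ob/+ 4. These correlations do not settle whether a shared number links libraries. Ratios of carriers that share a substrate moved by less than their spread between libraries in 63 of 63 recalculations. The left-out libraries were chosen after seeing the data. With groups of 4, leaving out 1 library, or 1 of each group, cannot move the difference of means beyond that spread. The count was therefore fixed by the arithmetic, and no conclusion on the stability of the ratios is drawn from it. The 10 members below 0.3 FPKM in every library rest on few fragments, so differences among them were not detectable at this depth. Slc25a45 and Slc25a47 were higher, at up to 1.15 and 0.70 FPKM, and were left out of the reported test by the filter.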
